A study of Mus musculus with 4 samples.

Results

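The integrins and the core genes of focal adhesions were followed in lungs carrying 4T1 metastases. Members were the protein-coding genes whose symbol names an integrin alpha or beta subunit, together with 15 named focal adhesion genes (the talins Tln1 and Tln2, the kindlins Fermt1 to Fermt3, Vcl, Ilk, Lims1, Parva, Parvb, Ptk2, Pxn, Zyx, Actn1 and Actn4). This gave 41 genes of the 56748 in the count table, namely 18 alpha subunits, 8 beta subunits and the 15 core genes. The rule used gene names, not levels. Of the 41, 40 had enough reads to be tested, each above the filter level in all 4 libraries. The remaining member, Itgad, an alpha subunit of leukocytes, had counts of 0 and 0 in the saline libraries and of 0 and 1 in the treated libraries.

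Integrins are cell surface receptors built from an alpha and a beta subunit, and the alpha subunit largely sets which ligand is bound: collagens, laminins, proteins with an RGD motif such as fibronectin, or counter-receptors on other cells. Talin and kindlin bind the beta tail and switch the receptor on, while the complex of ILK, PINCH and parvin, the kinase FAK with its scaffold paxillin, and the actin-binding proteins vinculin, zyxin and alpha-actinin tie the receptor to signalling and to the actin cytoskeleton. In metastasis these proteins are best known for letting tumour cells grip, pull on and move through matrix, and in the lung they also hold epithelium, endothelium and leukocytes in place.

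The experiment asked what cmLumiOpto/PARPi does to gene expression in metastasis-bearing lungs. Female BALB/cJ mice aged 7 weeks received 4T1-FLuc cells, a mouse TNBC line carrying firefly luciferase, through the tail vein, and the host immune system was intact. Once metastases were detected by imaging, 1 group was given saline and the other was given cmLumiOpto, a mitochondria-directed light-switched channel carried by CD276-targeted exosome-associated AAV and driven by the tumour-selective cfos promoter, with its luciferase substrate ViviRen at 2 mg/kg and with olaparib, a PARP inhibitor, at 50 mg/kg. Imaging ran for 3 weeks, and the time from treatment to RNA harvest is not given in the sources used here. There were 2 saline and 2 cmLumiOpto/PARPi libraries, and no group here received either agent alone, so the parts of the combination cannot be told apart. The sample labels call the control PBS and the material tumour cells from lung, and do not say whether the libraries of a group came from separate mice, so p-values measure the spread between libraries, which may be technical in part.

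The libraries held between 15263375 and 16755228 counts, and 3 counts corresponded to 0.179 to 0.197 CPM, a gene's counts relative to its library's total on tested genes, a floor that covers counting error only. The epithelial transcripts Krt8 (998 to 1640 CPM) and Krt18 (740 to 1261 CPM), listed here as 4T1 markers, were high in every library. Their split between 4T1 cells and lung epithelium was not tested. Markers of lung cells were also present in every library, which the label of tumour cells does not mention: the summed alveolar type 2 markers stood at 1628 and 422 CPM after saline and at 7954 and 2815 CPM after treatment, and the summed airway markers at 1159 and 85.1 against 5730 and 3003 CPM. No marker gene of any of the 14 lists was at 0 in all 4 libraries. In bulk RNA fewer cells of a type and less RNA per cell cannot be told apart.

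The members as a group stood lower after cmLumiOpto/PARPi, though none passed the adjusted threshold. Both treated libraries lay below both saline libraries in 26 of the 40 tested members (65% against 27.8% of all 15167 tested genes), and above both in 3 members (7.5% against 27.4%), while the groups overlapped in 11. The median log2 fold change of treated against saline was -0.49 over the members and 0.02 over all tested genes, and single members ranged from -1.07 to 1.26. The share of all genes differed with level. Among the 2349 tested genes with a saline mean over 100 CPM, 52.0% lay apart and below and the median log2 fold change was -0.21. Of the 17 members at that level, 16 lay apart and below. Summed over the tested members, transcripts made up 8064 and 8699 CPM in the saline libraries and 5940 and 6526 CPM in the treated libraries.

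With edgeR's quasi-likelihood fit and p-values adjusted over all tested genes by Benjamini-Hochberg, 0 members and 0.00% of all genes had an adjusted p under 0.05, and the smallest adjusted p of any gene was 0.138. At an unadjusted p under 0.05 there were 17 members, all lower after treatment (42.5%), against 12.0% of all genes lower and 9.21% higher, and DESeq2 passed 9 members at its adjusted threshold among 1011 genes. The count of 17 became 4 after a loess correction for gene length and level (10% of members, against 7.60% of all genes), which moved the median over members to -0.18, and it became 5 without saline replicate 2 and 11 without cmLumiOpto/PARPi replicate 1. With the replicate number as a block, though the labels tie no same-numbered mice together, 13 members lower and 3 higher passed, against 7.05% and 4.96% of all genes. An exact permutation of 2 against 2 libraries cannot give a two-sided p below 0.333.

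**Figure D1:**
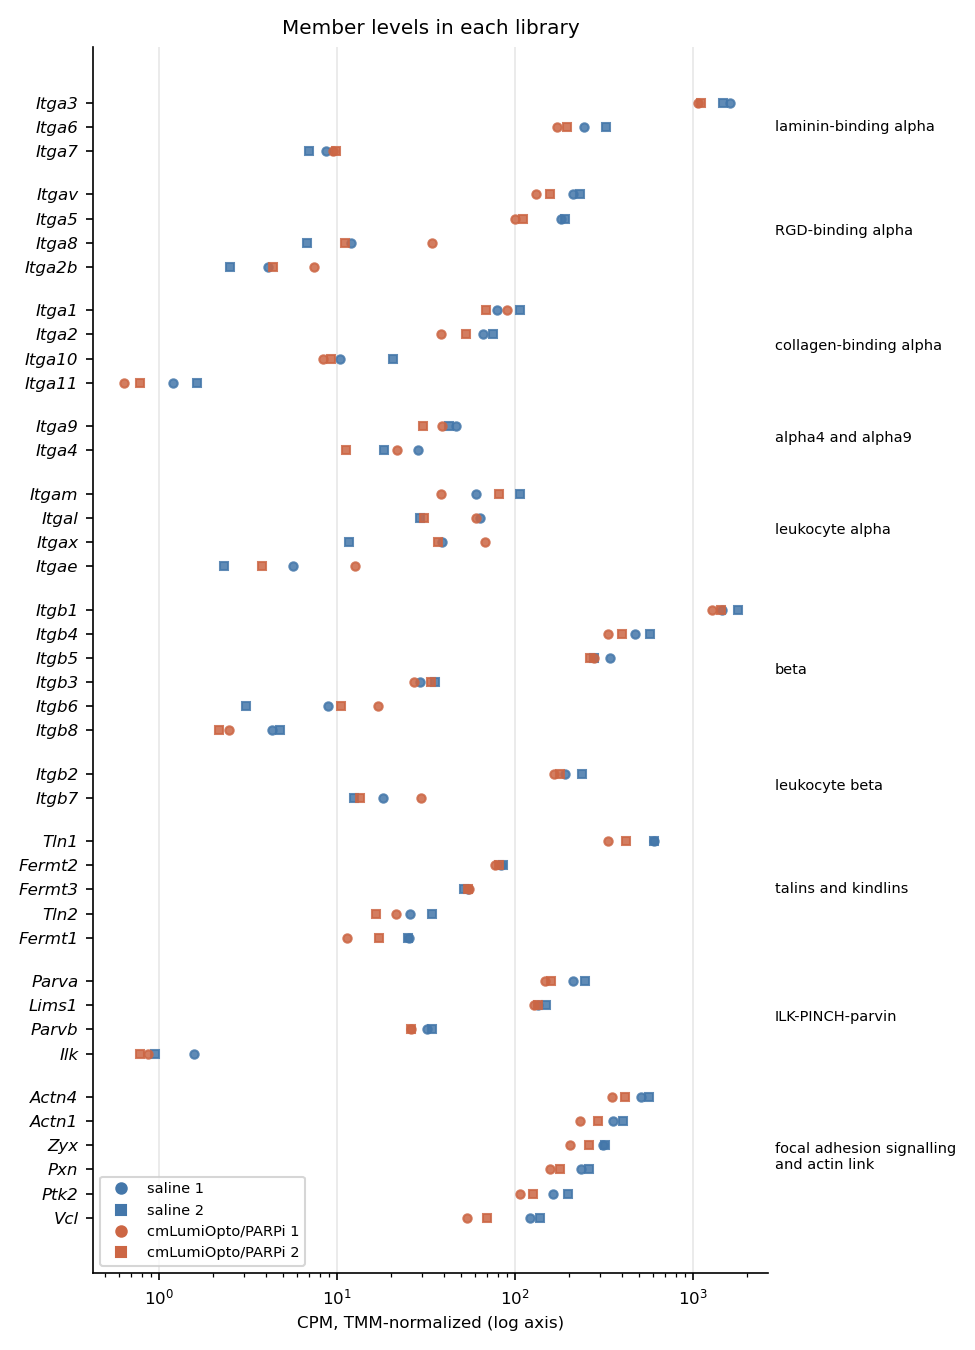
Level of each tested member in each library, in CPM on a log axis. Blue marks saline and orange cmLumiOpto/PARPi libraries, with circles for replicate 1 and squares for replicate 2. Both treated libraries lie to the left of both saline libraries in 26 of the 40 members, among them every gene of the group that links adhesions to signalling and actin.

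The members with the smallest p in the core and among the integrins were Vcl and Itga5, and their promoter sequences are shown as those of the genes behind the smallest p-values, beside 2 other members that share the CArG box of Vcl. Each line gives the 250 bases before the annotated start on the gene's strand, 5' to 3', from RefSeq on GRCm38.p6, with capitals on the CArG box, TEAD, AP-1 and PU.1 letters. Vcl lies at chr14:20929148-20929397, plus strand, Itga5 at chr15:103366792-103367041, minus strand, Fermt2 at chr14:45530066-45530315, minus strand and the first Itgb6 window at chr2:60673694-60673943, minus strand.
Vcl: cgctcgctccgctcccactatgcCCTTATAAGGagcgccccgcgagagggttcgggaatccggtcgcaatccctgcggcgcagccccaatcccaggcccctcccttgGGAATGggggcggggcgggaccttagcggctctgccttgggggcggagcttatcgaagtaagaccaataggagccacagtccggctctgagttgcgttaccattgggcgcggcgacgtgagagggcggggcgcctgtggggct
Itga5: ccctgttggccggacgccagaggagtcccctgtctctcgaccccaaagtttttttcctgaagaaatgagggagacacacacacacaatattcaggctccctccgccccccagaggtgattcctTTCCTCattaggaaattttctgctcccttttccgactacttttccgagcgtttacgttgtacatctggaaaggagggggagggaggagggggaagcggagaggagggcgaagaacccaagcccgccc
Fermt2: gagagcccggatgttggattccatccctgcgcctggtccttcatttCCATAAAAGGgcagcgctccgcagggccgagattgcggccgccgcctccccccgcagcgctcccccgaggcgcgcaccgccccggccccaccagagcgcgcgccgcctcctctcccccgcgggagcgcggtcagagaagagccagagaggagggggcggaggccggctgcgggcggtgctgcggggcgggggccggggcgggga
Itgb6: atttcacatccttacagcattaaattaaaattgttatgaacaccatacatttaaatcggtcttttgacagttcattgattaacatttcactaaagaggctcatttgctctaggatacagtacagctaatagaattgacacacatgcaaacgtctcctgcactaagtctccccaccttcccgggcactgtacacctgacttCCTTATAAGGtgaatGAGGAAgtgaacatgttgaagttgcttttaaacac

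Promoter windows were found for 29 of the 41 members, 34 windows in all. The CArG box, bound by serum response factor in many genes of the actin cytoskeleton, was present on either strand in 3 member windows (8.82%, against 1.47% of all 32851 windows): at -227 from the start in Vcl, at -204 in Fermt2 and at -50 in Itgb6. These genes differed in the RNA data, with log2 fold changes of -1.07, -0.09 and 1.19. The TEAD letters GGAATG were in 11.8% of member windows and 12.6% of all windows, the AP-1 letters TGANTCA in 8.82% and 6.75%, the PU.1 letters GAGGAA in 29.4% and 23.3%, and the SP1 letters GGGCGG in 47.1% and 32.7%. The capitals in Itga5 are the PU.1 letters read on the other strand. The median GC content was 59.6% in member windows and 52.4% in all windows, and a letter match is a description, not a measured binding site.

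The group that ties integrins to signalling and to actin was lower as a whole: all 6 genes lay apart and below, and all 6 had an unadjusted p under 0.05, with a median log2 fold change of -0.54 (against 27.8% and 12.0% of all genes). After the length correction all 6 still lay apart and below, but 1 had an unadjusted p under 0.05 and the median was -0.21. Vcl, vinculin, which binds talin and actin and strengthens adhesions under tension, lies on chromosome 14 at 20979466 to 21083744 of the deposited table (mm39 by the labels). Ap3m1 on the opposite strand (984 to 1047 counts) overlaps 2.14% of the Vcl span, and the use of strand in counting is not given. The level of Vcl was 121 and 137 CPM in the saline libraries and 53.8 and 69.8 CPM in the treated libraries. Both treated libraries were therefore well under both saline libraries, at 47.8% of the saline mean, and the difference (log2 fold change -1.07, SE 0.17, adjusted p 0.138) was larger than the spread within either group. Ptk2, the focal adhesion kinase FAK, measured 164 and 199 CPM after saline and 107 and 127 CPM after treatment (log2 fold change -0.64, SE 0.17, adjusted p 0.145). Pxn, paxillin, the scaffold that FAK binds, stood at 236 and 259 against 158 and 180 CPM (log2 fold change -0.55, SE 0.14, adjusted p 0.145). The groups did not overlap for either gene, and the gap between groups exceeded that between replicates.

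The alpha-actinins, which cross-link actin filaments at the adhesion, were among the more abundant core genes. Actn1 was at 354 and 405 CPM in saline and at 233 and 292 CPM in treated libraries (log2 fold change -0.53, SE 0.17, adjusted p 0.183). Actn4 was at 510 and 563 against 349 and 416 CPM (log2 fold change -0.49, SE 0.16, adjusted p 0.188). In both genes the higher treated library remained under the lower saline library. Zyx, zyxin, which is recruited to stressed actin fibres, was at 314 and 320 CPM after saline and at 203 and 261 CPM after treatment (log2 fold change -0.45, SE 0.17, adjusted p 0.213). The saline libraries of Zyx were nearly equal and the treated ones differed more. Zyx shares 16.3% of its span with Epha1 on the opposite strand (649 to 909 counts), and the use of strand in counting is not given in the sources used here, so its value is uncertain to that extent.

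Among the talins and kindlins, which switch integrins on, 4 of 5 genes lay apart and below and 3 had an unadjusted p under 0.05 (median log2 fold change -0.66). Of all genes 27.8% lay apart and below and 12.0% were lower at that p. After the length correction 3 lay apart and below, 1 had that p and the median was -0.24 (against 25.9% and 7.60% of all genes). Tln1, talin 1, the form found in most cells, measured 605 and 606 CPM in saline libraries and 332 and 423 CPM in treated libraries (log2 fold change -0.68, SE 0.17, adjusted p 0.145). Creb3 on the opposite strand (617 to 1191 counts) overlaps 1.15% of the Tln1 span. Tln2, talin 2, was far less abundant, at 25.6 and 34.3 against 21.5 and 16.5 CPM (log2 fold change -0.66, SE 0.24, adjusted p 0.203, and -0.43 without saline replicate 2). Both talins were lower without overlap between groups. Of the kindlins only Fermt1 had an unadjusted p under 0.05. Fermt1, kindlin-1 of epithelial cells, was at 25.5 and 25.2 CPM after saline and at 11.3 and 17.2 CPM after treatment (log2 fold change -0.83, SE 0.25, adjusted p 0.169). Fermt2, kindlin-2, present in most adherent cells, was at 83.0 and 86.2 against 77.2 and 81.6 CPM (log2 fold change -0.09, SE 0.12), with the groups separated by a narrow margin and the sign turned by the length correction (0.064) and by upper quartile scaling (0.014). Fermt3, kindlin-3 of blood cells, was at 54.8 and 51.9 against 55.3 and 54.5 CPM (log2 fold change 0.04), with overlapping groups.

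In the ILK, PINCH and parvin complex Parva, Parvb and Lims1 lay below saline without overlap, as did 27.8% of all genes. Lims1 turned to a log2 fold change of 0.075 with the length correction. Only Parva had an unadjusted p under 0.05, against 12.0% of all genes lower at that p. Parva, alpha-parvin, the main actin-binding parvin of adherent cells, was at 211 and 247 CPM in saline and at 148 and 160 CPM in treated libraries (log2 fold change -0.58, SE 0.15, adjusted p 0.145). Parvb, its relative, had a log2 fold change of -0.35, and Lims1, which encodes PINCH1, measured 135 and 149 against 127 and 134 CPM (log2 fold change -0.12, SE 0.13). The lower saline and the higher treated library of Lims1 were thus nearly equal. Ilk, the pseudokinase at the centre of the complex, had only 25 and 14 counts in saline and 15 and 13 counts in treated libraries, and 55.8% of its span lies opposite Taf10 (851 to 1302 counts), so no statement on Ilk rests on these counts.

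**Figure D2:**
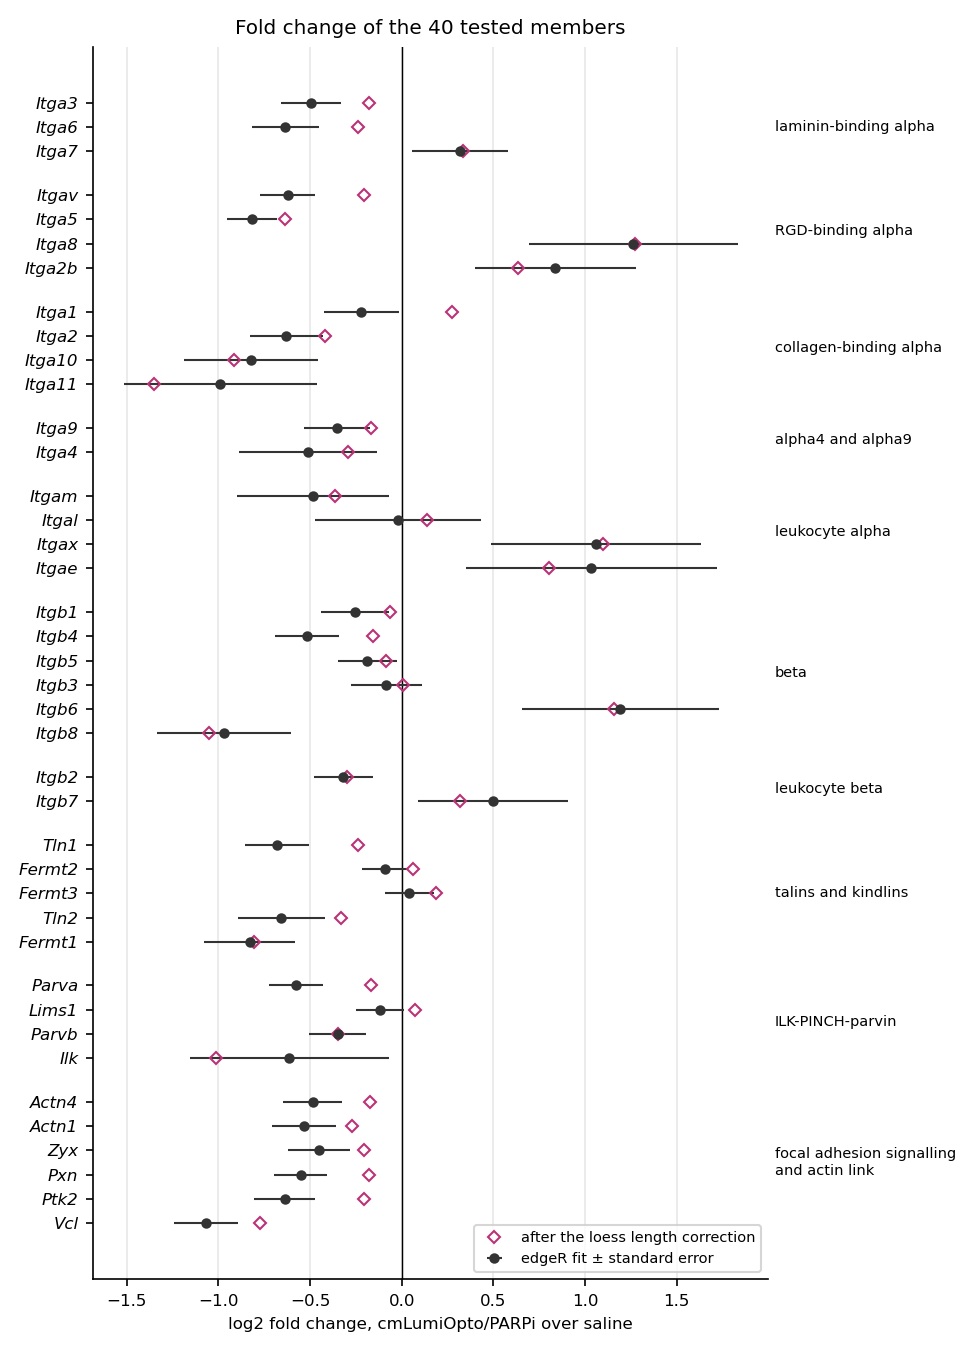
Log2 fold change of cmLumiOpto/PARPi against saline for the 40 tested members by functional group, with bars of 1 standard error from edgeR. All 6 genes linking adhesions to signalling and actin lie left of 0, between -1.07 and -0.45, while the leukocyte alpha subunits lie on both sides.

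Of the 25 tested integrin subunits, 7 had an unadjusted p under 0.05, all lower (28%, against 12.0% of all genes). The groups lay apart and below in 12 (48%, against 27.8% of all genes), with a median log2 fold change of -0.32. After the length correction 2 were lower at that p, against 7.60% of all genes, and the median was -0.16. Then 9 lay apart and below and 5 apart and above, against 25.9% and 24.3% of all genes. The RGD-binding alpha subunits split: Itga5 and Itgav were lower, while Itga8 and Itga2b had fitted values above saline. Itga5, the alpha subunit of the main fibronectin receptor (chromosome 15 at 103252713 to 103275190 of the deposited table, minus strand), was at 181 and 191 CPM in saline and at 99.6 and 112 CPM in treated libraries. Replicates lay close together and the groups far apart, with the treated mean at 56.7% of saline (log2 fold change -0.82, SE 0.14, adjusted p 0.138). Itgav, the shared alpha subunit of the vitronectin and TGF-beta-activating receptors, was at 212 and 233 against 132 and 157 CPM (log2 fold change -0.62, SE 0.15, adjusted p 0.142).

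Itga8, an integrin of mesenchymal cells, was at 12.0 and 6.75 CPM after saline and at 34.1 and 11.1 CPM after treatment (log2 fold change 1.26, SE 0.57). Its groups overlapped, 1 treated library carried the excess, and without cmLumiOpto/PARPi replicate 1 the log2 fold change was 0.23. Itga2b, the platelet alpha subunit, was at 4.08 and 2.52 against 7.43 and 4.39 CPM (log2 fold change 0.84), apart by a narrow margin. The summed platelet markers (4 of 6 tested) were at 11.1 and 26.9 against 17.1 and 42.2 CPM, and their part in Itga2b was not tested.

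Of the laminin-binding alpha subunits, which anchor epithelium to basement membrane, Itga3 and Itga6 were lower. Itga3 was the most abundant alpha subunit per kilobase, and its level was 1605 and 1472 CPM in saline and 1069 and 1116 CPM in treated libraries (log2 fold change -0.49, SE 0.16, adjusted p 0.184). Itga6 was at 245 and 325 against 172 and 195 CPM (log2 fold change -0.63, SE 0.19, adjusted p 0.163). Neither gene overlapped between groups. Itgb4, the partner of Itga6 in hemidesmosomes, was also lower, at 474 and 574 against 335 and 398 CPM (log2 fold change -0.52, SE 0.18, adjusted p 0.193). Itga7, a laminin receptor best known from muscle, was at 8.65 and 6.95 against 9.56 and 9.93 CPM (log2 fold change 0.32), apart and slightly higher.

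The 4 collagen-binding alpha subunits all had fitted values below saline, except that Itga1 turned to 0.27 with the length correction. Of the 4, 3 lay apart and below, as did 27.8% of all genes. Itga2, a collagen and laminin receptor of epithelium and platelets, was at 66.3 and 75.6 CPM in saline and at 38.5 and 53.3 CPM in treated libraries (log2 fold change -0.63, SE 0.20, adjusted p 0.177). It was the only member of the group with an unadjusted p under 0.05, against 12.0% of all genes lower at that p. Itga10, a collagen receptor of cartilage, was at 10.4 and 20.6 against 8.35 and 9.21 CPM (log2 fold change -0.82), with 1 saline library well above the other and a log2 fold change of -0.25 without it (saline replicate 2). Itga11, a receptor of fibroblasts, was the least abundant tested member per kilobase (log2 fold change -0.99, SE 0.53), and Itga1 overlapped between groups (log2 fold change -0.22, with 44.8% of its span shared with Gm49395, which held 0 to 5 counts). Itga9 was apart and lower (log2 fold change -0.35), and Itga4, which like Itga9 binds VCAM1, overlapped (log2 fold change -0.51).

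Itgb1, the beta subunit that pairs with most alpha subunits, was the most abundant member per kilobase, at 397 CPM per kilobase in saline against 269 for Itga3, 87.5 for Actn4 and 87.0 for Itgb5. Its level was 1455 and 1782 CPM in saline and 1277 and 1437 CPM in treated libraries. The lower saline library barely exceeded the higher treated library (log2 fold change -0.25, SE 0.19, adjusted p 0.462). Of the beta subunits that pair with Itgav, Itgb8, known for activating TGF-beta, was at 4.33 and 4.77 against 2.48 and 2.17 CPM (log2 fold change -0.97, SE 0.37, adjusted p 0.217). Itgb6, the epithelial subunit with the same activity, was at 8.91 and 3.07 against 16.9 and 10.5 CPM (log2 fold change 1.19, SE 0.54), apart and higher, with a log2 fold change of 0.62 without saline replicate 2 and of 2.16 without saline replicate 1. Itgb5 (log2 fold change -0.19) and Itgb3 (-0.08) overlapped between groups.

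Of 32 ratios between members in the same library, 14 lay apart and lower after treatment, 6 lay apart and higher and 12 overlapped. As a percentage of Itgb1 per kilobase, Itga5 stood at 10.3% and 8.89% in saline and at 6.45% and 6.42% in treated libraries, and Itga6 at 7.50% and 8.14% against 6.01% and 6.06%. Itgav was at 5.54% and 4.96% against 3.93% and 4.15% of Itgb1, and Itga2 at 2.61% and 2.43% against 1.72% and 2.12%. For these 4 alpha subunits the treated libraries lay below both saline libraries, whereas Itga3, at 78.8% and 59.0% against 59.8% and 55.5% of Itgb1, overlapped. The pairs differ in gene length, and the difference in log2 fold change from Itgb1 went from -0.56 to -0.57 with the length correction for Itga5, from -0.38 to -0.17 for Itga6, from -0.37 to -0.14 for Itgav and from -0.37 to -0.36 for Itga2.

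As a percentage of Itgav, Itgb6 was at 6.34% and 1.99% in saline and at 19.4% and 10.1% in treated libraries, Itgb3 at 25.1% and 27.7% against 37.5% and 39.1%, and Itgb5 at 486% and 360% against 641% and 505%. All 3 beta subunits were thus higher relative to Itgav in both treated libraries, while Itgb8 was lower, at 1.98% and 1.99% against 1.82% and 1.34%. For Itgb6, Itgb3 and Itgb5 the difference in log2 fold change from Itgav fell with the length correction. It went from 1.81 to 1.36, from 0.54 to 0.21 and from 0.43 to 0.12. For Itgb8 it went from -0.35 to -0.85. Itgax relative to Itgb2, at 12.9% and 3.10% against 26% and 13.2%, Itga7 relative to Itgb1, at 0.298% and 0.196% against 0.375% and 0.347%, and Parvb relative to Parva were also apart and higher. The difference in log2 fold change of Parvb from Parva was 0.23, but -0.18 with the length correction. Within the core, Vcl relative to Tln1 was at 24% and 27.1% against 19.4% and 19.7%, and Parva relative to Lims1 at 79.1% and 83.7% against 58.6% and 60.1%. The difference in log2 fold change of Parva from Lims1 was -0.46, and -0.24 with the length correction. Itga6 relative to Itgb4 was apart by a narrow margin, at 39.6% and 43.4% against 39.4% and 37.6%. With 2 libraries in each group these ratios are given without a test.

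**Figure D3:**
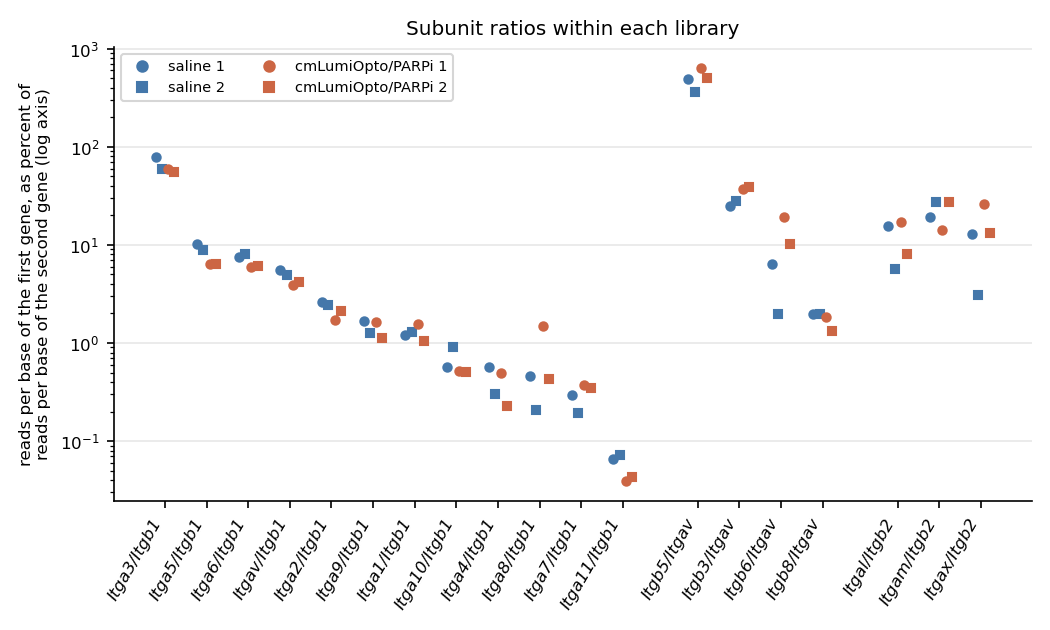
Level per kilobase of a member as a percentage of its partner in the same library, on a log axis. Blue marks saline and orange cmLumiOpto/PARPi libraries, with circles for replicate 1 and squares for replicate 2. Itga5 relative to Itgb1 sits at 8.89% and above in saline and at 6.45% and below after treatment, and Itgb6 relative to Itgav is higher in both treated libraries.

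The leukocyte integrins gave no common direction. All 4 tested leukocyte alpha subunits overlapped between groups, with a median log2 fold change of 0.51. Itgax, CD11c of dendritic cells and alveolar macrophages, was at 38.8 and 11.7 CPM in saline and at 68.0 and 37.2 CPM in treated libraries (log2 fold change 1.06, between 0.44 without saline replicate 2 and 2.17 without saline replicate 1). Itgam, CD11b of myeloid cells, was at 60.4 and 107 against 38.5 and 81.1 CPM (log2 fold change -0.48). Itgal, the LFA-1 alpha subunit, was at 63.7 and 29.2 against 60.7 and 31.0 CPM, and its fitted sign differed between scalings. In each of these genes the libraries of a group differed widely from each other. A predicted gene, Gm49368, covers 99.9% of the Itgam span on the same strand but held only 0 to 2 counts. Itgae, a subunit of tissue-resident T cells, was at 5.64 and 2.32 against 12.6 and 3.79 CPM (log2 fold change 1.03), and it overlaps Haspin on the opposite strand over 4.94% of its span (121 to 175 counts). Itgb2, their shared beta subunit apart from Itgae, was at 191 and 239 against 166 and 179 CPM (log2 fold change -0.32), apart and lower, and Itgb7 overlapped (log2 fold change 0.50).

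The marker lists of the cells that carry these integrins also differed between libraries. The 4 summed leukocyte markers were at 626 and 410 CPM in saline and at 690 and 571 CPM in treated libraries, the neutrophil markers (7 of 7 tested) at 1340 and 580 against 858 and 1669, and the T cell markers (5 of 6 tested) at 40.8 and 15.5 against 81.1 and 22.6. The 4T1 epithelial markers (6 of 7 tested) were at 2554 and 2944 against 2250 and 3334 CPM, overlapping between groups, with Krt5 at 0 in 1 saline library. These are epithelial genes and lung epithelium was present, so this sum does not measure tumour content alone. The fibroblast markers (6 of 6 tested) were at 2447 and 1727 against 755 and 812 CPM, a sum led by Col1a1, with 3 genes lower and 2 higher at an unadjusted p under 0.05. The airway (6 of 6) and alveolar type 2 (6 of 6) markers were higher in both treated than in both saline libraries, with 5 genes of each list higher at that p, and so was the alveolar type 1 sum (376 and 223 against 936 and 486 CPM). Endothelial markers were at 476 and 372 against 689 and 369 CPM. The macrophage markers (7 of 7 tested) were at 1850 and 1601 against 1881 and 1449 CPM, overlapping between groups. The alveolar macrophage markers (5 of 7 tested) were at 132 and 438 against 128 and 150 CPM. That sum was led by Chil3, while 2 genes of the list were higher at an unadjusted p under 0.05. The part of these cell types in the member values was not tested.

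**Figure D4:**
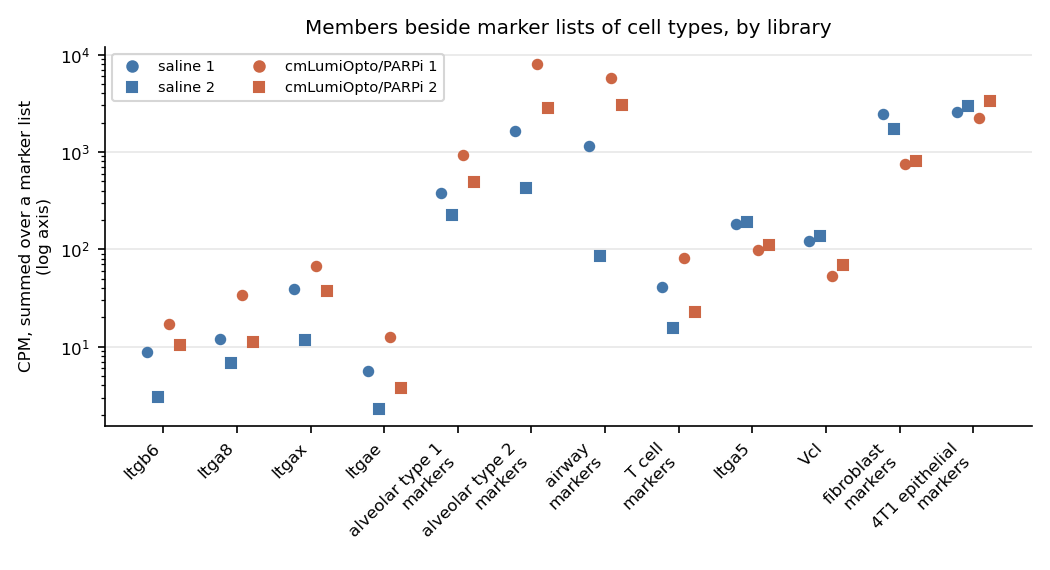
Levels of Itgb6, Itga8, Itgax, Itgae, Itga5 and Vcl beside summed marker lists of cell types in each library, in CPM on a log axis. The lists drawn are alveolar type 1, alveolar type 2, airway, T cell, fibroblast and 4T1 epithelial. The 4T1 epithelial sum overlaps between groups, and the airway and alveolar type 2 sums are higher in both treated libraries.

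The members are long genes, and log2 fold change varied with gene length in these libraries. The median deposited gene length of the tested members was 5842.5 bases against 4127 for all tested genes, and 35 of the 40 were longer than the median gene. Across all tested genes the median log2 fold change in 5 equal classes of length, from short to long, was 0.31, 0.15, 0.02, -0.09 and -0.27 (Spearman's rho -0.37 across genes, which are not independent). Among the 24 members of 4000 to 8000 bases the median was -0.35, against -0.08 for the 5360 genes of that length, and 8 of them (33.3%) against 14.1% were lower at an unadjusted p under 0.05. Among the 12 longer members the median was -0.63 against -0.29, and 9 (75%) against 34.0% were lower. Members thus stood lower than genes of their own length class in both classes, by less than against all genes.

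After a loess correction for length and level in each library, 4 members remained at an unadjusted p under 0.05, all lower (10% of members, against 7.60% of all genes): Vcl (log2 fold change -0.77), Itga5 (-0.64), Fermt1 (-0.81) and Itgb8 (-1.05). After it 21 members lay apart and below (25.9% of all genes did) and 8 (20%) lay apart and above (24.3% of all genes did), and the median over members was -0.18 against -0.01 over all genes. No member passed the adjusted threshold there, with Vcl and Itga5 at an adjusted p of 0.267. The 17 members with a saline mean over 100 CPM held 13 of the 17 with an unadjusted p under 0.05, against 30.9% of the 2349 genes of that level.

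**Figure D5:**
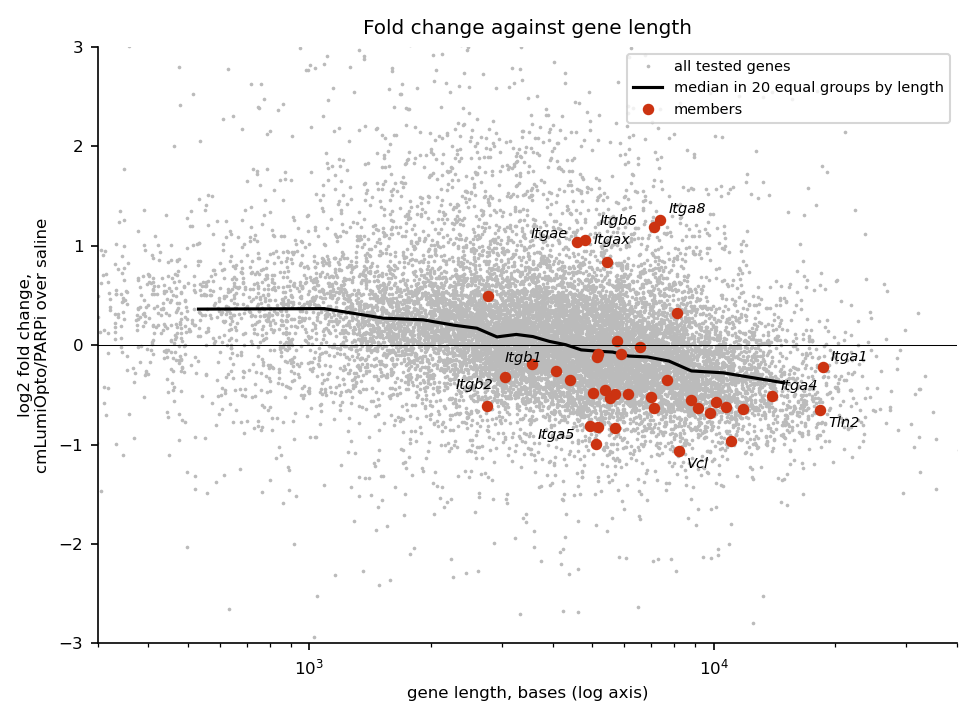
Log2 fold change of treated against saline by gene length in bases on a log axis, for all tested genes (grey, with 175 outside the axes) and for the members (coloured), with the line joining the medians of 20 groups of equal size by length. The medians descend with length, and Vcl and Itga5 lie below the line while Itga8, Itgb6, Itgax and Itgae lie above it.

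The wider lists gave the setting of the members. Of 56 adhesion partners, 55 were tested, 19 were lower and 3 higher at an unadjusted p under 0.05, 30 lay apart and below and 9 apart and above, and the median log2 fold change was -0.24. Of all tested genes 12.0% were lower and 9.21% higher at that p, and 27.8% and 27.4% lay apart. The 19 became 11 with the length correction, which moved the median to 0.00, and 11 without saline replicate 2. The actin scaffold Palld was at 221 and 212 CPM in saline and at 106 and 128 CPM in treated libraries, the zyxin relative Lpp at 102 and 141 against 60.5 and 51.0, and the Arf regulator Asap1 at 300 and 363 against 152 and 201. All 3 lay apart, with log2 fold changes of -0.89, -1.12 and -0.91. Itgb1bp1, which competes with talin for the beta 1 tail and so restrains the receptor, was at 18.9 and 23.3 against 34.1 and 33.1 CPM (log2 fold change 0.67, SE 0.18, adjusted p 0.150). The other partners higher at that p were Cib1, which binds the platelet alpha subunit (30.5 and 27.3 against 46.2 and 37.1 CPM), and Lpxn, the leukocyte relative of paxillin (7.96 and 6.61 against 16.4 and 10.2 CPM).

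Of 36 integrin ligands, 30 were tested, 15 were lower and 1 higher at an unadjusted p under 0.05, 18 lay apart and below and 4 apart and above, and the median log2 fold change was -0.55. These were 50% lower and 60% apart and below, against 12.0% and 27.8% of all genes. The 15 became 8 with the length correction, which moved the median to -0.29, and 8 without saline replicate 2. Col1a1, the main chain of type I collagen, was at 2064 and 1377 CPM in saline and at 455 and 572 CPM in treated libraries (log2 fold change -1.74, SE 0.26, adjusted p 0.138), and Col1a2 was at 1250 and 775 against 417 and 438 CPM (log2 fold change -1.24). Lamc1, the common laminin gamma chain, was at 531 and 635 against 296 and 329 CPM (log2 fold change -0.90). All 3 lay apart, as did the receptors of laminin Itga3 and Itga6. Icam2, an endothelial ligand of LFA-1, was at 13.0 and 6.81 against 37.0 and 14.3 CPM (log2 fold change 1.37, adjusted p 0.219), and Icam1 at 66.2 and 32.6 against 126 and 67.1 CPM (log2 fold change 0.97). Icam2 and Icam1 were higher in each treated library than in each saline library, Icam1 by a narrow margin. So was Jam3, next in order of p among the ligands with a higher fitted value, at 1.76 and 1.91 against 3.68 and 2.47 CPM. Vcam1, whose protein Itga4 and Itga9 bind, went the other way. It lay apart and below, at 373 and 445 against 342 and 345 CPM (log2 fold change -0.25).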

How the data were processed

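Bulk RNA-seq of lungs with 4T1 metastases was analysed in 2 saline and 2 cmLumiOpto/PARPi libraries, grouped by the sample labels. The authors deposited raw read counts per gene, not normalized, with gene positions and lengths. The labels' processing notes name HISAT2 and mm39, while the study's methods name GRCm38, and 2.76% of 52073 genes had the same position in a GRCm38 annotation. Positions in the table are therefore given as mm39. The counter, its strand setting and its handling of overlapping genes are not given in the sources used here.

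The deposited counts were filtered with filterByExpr (minimum count 10), scaled by TMM and tested with edgeR 4.0.16 (glmQLFit, glmQLFTest, Benjamini-Hochberg, threshold 0.05) in R 4.3.3. CPM are relative to the TMM-scaled total of tested genes. The standard error is the log2 fold change divided by the square root of F. Totals of 15263375 to 16755228 counts set the precision, and chi-square per degree of freedom between libraries of a group was 25.2 in saline and 45.4 in treated, above counting noise, so each counted as 1 replicate. The methods were run on simulated counts with independent libraries, a common dispersion and changes larger than those of the members. Those runs do not measure power or error for changes of the members' size. Ratios used CPM per kilobase of the length in the table.

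Members and lists were chosen with earlier results of these data known. Named with the value of every library were members with an unadjusted p under 0.05 and groups apart, their partners, and up to 3 genes per list in each direction with the smallest p; Itga10, Itga2b, Itga7, Itga8, Itgae, Itgal, Itgam, Itgax, Itgb6, Lims1, Fermt2, Fermt3 and Ilk were given in full after their values were seen. Alternatives were DESeq2 1.42.0, upper quartile scaling, no filter, the length correction (loess span 0.5), the replicate block and leaving out each library.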

Additional observations from a re-analysis of the deposited data

How the results depend on the processing

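The count of members lying apart and below (26) was 21 with the length correction, 22 with upper quartile scaling, 25 by DESeq2 and 27 without the filter. The replicate block leaves CPM unchanged, so it could not move this count. With a library left out 28 or 29 lay so, but fewer libraries are then compared. That makes separation easier in either direction, so these runs do not show stability. Genes past the adjusted threshold, 0 by edgeR, were 1011 by DESeq2, 2000 without the filter on low counts and 0 to 2 with a library left out. Members past it were 9 by DESeq2 and 13 without the filter. Members at an unadjusted p under 0.05 (17) were 4 with the length correction, 11 with upper quartile scaling and 5 to 19 with a library left out, and such genes overall (3221) were 1647 to 3236 with a library left out. Members apart and above (3) were 8 with the length correction, 5 with upper quartile scaling and 3 to 9 with a library left out. The median over members was -0.18 with the length correction. Upper quartile scaling moved the median of all genes from 0.02 to 0.13 and gave 3275 of 15167 genes at an unadjusted p under 0.05. The cause of these shifts was not tested.

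Same-numbered libraries share only a number by the labels, and their deviations from the group means correlated (Spearman's rho 0.298 across genes). A block for the replicate number gave 1822 genes and 16 members past the adjusted threshold (13 members lower, 3 higher, against 7.05% and 4.96% of all genes). At an unadjusted p under 0.05 it gave 27 of the 40 tested members, 22 lower and 5 higher, against 4639 of all 15167 tested genes. With the block and the length correction 404 of the 15167 genes and 3 of the 40 members passed, the median was -0.18 and 8 members lay apart and above.

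Small fitted values changed sign. With the length correction, without and with the block, Fermt2 stood at 0.064 and 0.064, Itga1 at 0.27 and 0.27, Itgal at 0.14 and 0.16, Itgb3 at 0.005 and 0.0027 and Lims1 at 0.075 and 0.076. With upper quartile scaling Fermt2 was at 0.014, Itgal at 0.080 and Itgb3 at 0.023, and with the block alone Itgal was at 0.0047. With a library left out Itgae ran from -0.075 to 1.82, Itgb7 from -0.18 to 0.95, Itgb3 from -0.25 to 0.064 and Itgal from -0.59 to 0.65.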

Other observations

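Ilk had 13 to 25 counts in each library, or 0.460 CPM per kilobase in saline, while its complex partners Parva and Lims1 had 22.6 and 27.7 CPM per kilobase. Ilk is overlapped on the opposite strand by Taf10 over 55.8% of its span and by Rrp8 over 12.5%, and those genes held 851 to 1302 and 405 to 523 counts. How reads on overlapping genes were assigned is not given in the sources used here.

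In the order of levels per kilobase, Vcl moved from rank 18 in saline to rank 22 after treatment among the tested members, and Itgax from rank 27 to rank 18. Of the 40 tested members, 21 were lower in replicate 1 than in replicate 2 of both groups and 12 were higher.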
